A study of Mus musculus with 12 samples.

Results

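Genes with very long coding sequences (CDS) were described in the mouse brain across 12 RNA-Seq and ribosome profiling libraries. The list of 51 genes holds giant proteins of the cytoskeleton, the synapse, ubiquitin transfer, vesicle trafficking, kinase signalling and the cell surface, and its members were chosen by protein size, from general knowledge, after the fitted RNA, footprint, TE and pull-down changes of single genes in these libraries had been seen. Of the 51 genes, 49 were in both deposited tables, among 20504 genes counted on CDS and 23352 counted on exons, and Csmd2 and Rnf213 were not analysed here. All of those changes therefore count as used in the choice, and the members' values are given as descriptions, with the share of all genes past each threshold printed beside the members' count and nothing read from the pair.

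Ribosome profiling sequences the short stretches of mRNA that ribosomes shield from nuclease, so that the footprint count of a gene follows the number of ribosomes on its message. The ratio of footprints to RNA-Seq reads on the CDS is called translation efficiency (TE). A very long CDS carries many ribosomes and takes a ribosome a long time to traverse, and in neurons such messages encode proteins that bridge cytoskeletal filaments, organise release sites and anchor membrane channels.

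All 6 mice were adult Camk2a-RiboTag animals, which carry an HA-tagged ribosomal protein Rpl22 switched on by a Cre under the Camk2a promoter, active mainly in excitatory forebrain neurons. Mice A and B received vehicle (the labels call them untreated) while mice C and D were given AZD-8055, which blocks the ATP site of the kinase mTOR, at 100 mg/kg by gavage 1 h before collection. Each of these 4 gave a poly(A) RNA-Seq library and a footprint library of whole frontal tissue. Mice E and F, untreated, each gave an RNA-Seq library of total tissue lysate (input) and of polysomes pulled down by the HA tag (IP). With 2 mice a group, a spread between mice rests on 2 animals. The standard errors (SE) are those of a fit that shares its estimate of spread across all genes tested.

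Footprint libraries held 3503873 to 9259938 counts on CDS and RNA-Seq libraries 9309496 to 15585831. The very long genes took 1.22% and 1.27% of CDS counts in the RNA of the vehicle mice and 1.02% and 1.06% in that of the AZD-8055 mice. In footprints their share was 1.15% and 1.19% with vehicle and 1.25% and 1.25% with AZD-8055. In the RiboTag mice it was 1.43% and 1.38% in input and 0.529% and 0.493% in IP. Markers of excitatory neurons, such as Slc17a7 and Camk2a, were present in every library at a summed 4110 to 4580 CPM (counts scaled to 1000000 per library) in the RNA of mice A to D. Choroid plexus markers set mouse B apart, at a summed 1030 CPM against 25.3 to 74.7 CPM in the RNA of the other 3 mice.

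After AZD-8055 the RNA of the very long genes was lower almost throughout. Of 48 genes past the count minimum (a mean of 37 counts per library), 46 had a fitted log2 change below 0, against 49% above 0 for all 12182 genes tested. Their median was −0.24 and that of all genes −0.0035. In 42 of the 48 both AZD-8055 mice lay below both vehicle mice, which held for 19.6% of all genes, and in 2 both lay above, which held for 19.3%. At an adjusted p under 0.05 (edgeR quasi-likelihood test, Benjamini-Hochberg over all genes) 5 were called lower, among 11 genes called lower in all (0.0903%), and none was called higher (0.0575% of all genes). Over 2-fold, 0 members were called in either direction (0.0164% of all genes in each). At an unadjusted p under 0.05, 33 were lower (4.34% of all genes) and 0 higher (3.9%). DESeq2 called 12 members lower, among 21 genes, and 0 higher.

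The largest fall was that of Mdn1, which encodes the giant AAA ATPase midasin of ribosome assembly (chr4:32657114-32775217, GRCm38). Its RNA was at 129 and 138 CPM in vehicle mice A and B and at 75.6 and 86.1 CPM in AZD-8055 mice C and D. The groups did not overlap, and the fitted log2 change was −0.72 (SE 0.08).

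Ahnak, a scaffold beneath the plasma membrane (chr19:8989284-9076935), was at 87.5 and 91.4 CPM with vehicle and at 55.0 and 57.5 CPM with AZD-8055. Both treated mice lay far below both controls, with a log2 change of −0.67 (SE 0.08). Fat3, an atypical cadherin of dendrite patterning (chr9:15910189-16502681), was at 74.2 and 75.4 CPM and then at 48.7 and 48.2 CPM, a log2 change of −0.63 (SE 0.08). The 2 mice within each group were nearly level for Fat3, with a clear gap between the groups.

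Smg1, the kinase that phosphorylates Upf1 in nonsense-mediated mRNA decay (chr7:118131308-118244437), was at 193 and 220 CPM with vehicle and at 147 and 133 CPM with AZD-8055. Its log2 change was −0.56 (SE 0.08), without overlap. Macf1, a spectraplakin that crosslinks actin and microtubules (chr4:123349633-123687802), was at 569 and 610 CPM and then at 413 and 431 CPM, a log2 change of −0.48 (SE 0.07). These 5 genes, Mdn1, Ahnak, Fat3, Smg1 and Macf1, are the members called lower in RNA.

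Fras1, an extracellular matrix protein of epithelial basement membranes, was not called and had a log2 change of −0.50 (SE 0.10). Its RNA was at 52.8 and 58.6 CPM with vehicle and at 40.6 and 38.3 CPM with AZD-8055, again without overlap. Csmd3, a complement-domain membrane protein, had a change of −0.46 (SE 0.10), and Dst, the spectraplakin dystonin, one of −0.38 (SE 0.07).

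The genes at the other end of the order did not separate downward. Lrba, a BEACH protein of vesicle trafficking, was at 57.2 and 56.3 CPM with vehicle and at 61.1 and 61.4 CPM with AZD-8055, a log2 change of 0.11 (SE 0.08). Reln, the secreted guidance protein reelin, was at 98.1 and 100.0 CPM and then at 110.6 and 102.7 CPM, a change of 0.11 (SE 0.07). Both were above the controls without overlap, and neither was called.

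Celsr3 and Celsr2, cadherins of planar cell polarity, overlapped between the groups. Celsr3 was at 192 and 232 CPM with vehicle and at 199 and 223.5 CPM with AZD-8055, and Celsr2 at 289 and 299.5 CPM and then at 286 and 298 CPM. Their fitted changes of −0.01 each were smaller than their standard errors of 0.09 and 0.07. Nbea, the synaptic BEACH protein neurobeachin, was at 313 and 304 CPM and then at 295 and 286 CPM, a small separation with a change of −0.09 (SE 0.07).

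By role, all 7 ubiquitin enzymes tested lay in a narrow range of RNA change, from −0.34 (Ubr4) to −0.25 (Usp34), and none was called. The 12 cytoskeletal linkers, spectraplakins, nesprins, ankyrins and their like, ran from −0.67 to −0.11, and 2 of them were called lower. The 2 active zone scaffolds that organise presynaptic release, Bsn and Pclo, were at −0.27 and −0.28, and the 2 ryanodine receptors, Ryr2 and Ryr3, which release calcium from the endoplasmic reticulum, were at −0.36 and −0.20. The 6 giant cadherins ranged from −0.63 for Fat3 to −0.01 for Celsr3, and the 4 other surface and extracellular proteins from −0.50 for Fras1 to 0.11 for Reln.

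The members' RNA values by pairs of mice are given as a description only. The pairs share mice, and these changes had been seen when the members were chosen. The members' median log2 difference was −0.26 for mouse C over A, −0.22 for D over A, −0.27 for C over B and −0.25 for D over B. Between the 2 vehicle mice it was 0.05 and between the 2 AZD-8055 mice 0.03. Leaving out mouse A raised the count called lower from 5 to 10. Leaving out mouse B, the animal with the choroid plexus signal, left the median at −0.23.

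**Figure D1:**
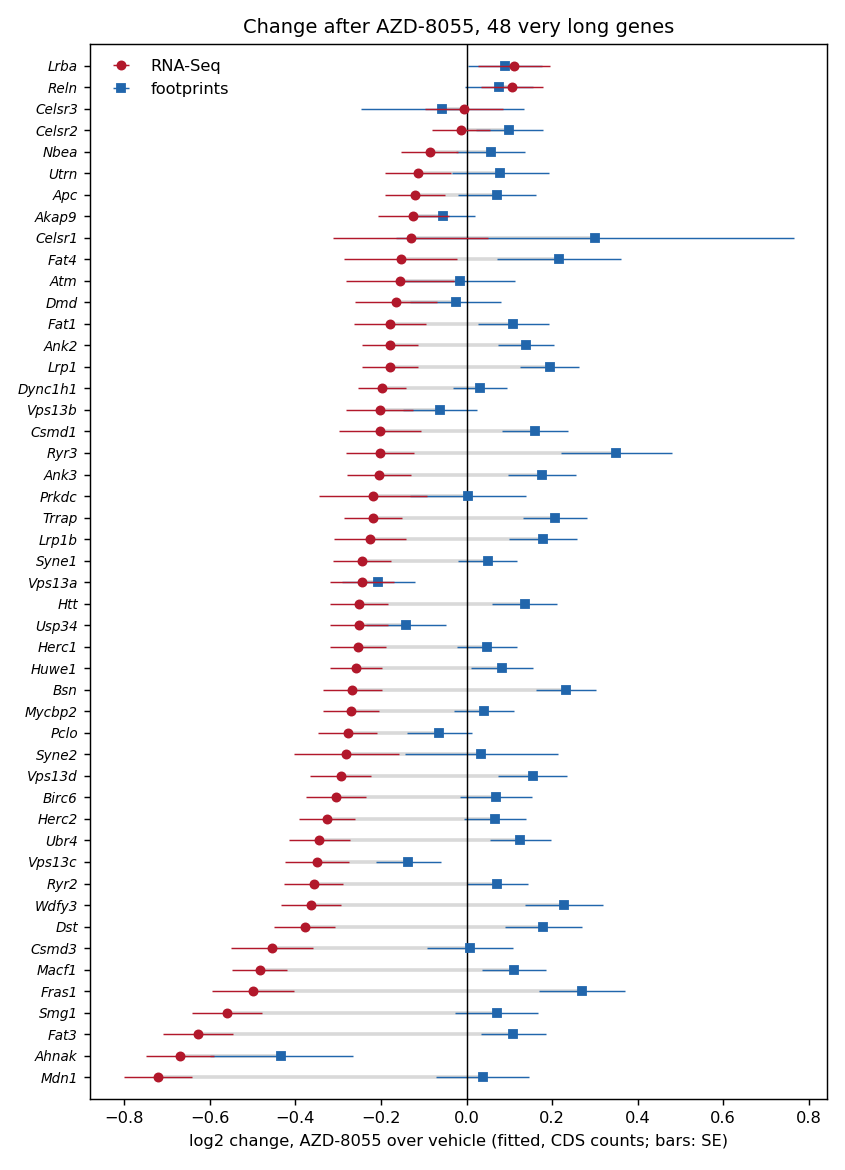
Fitted log2 change of RNA-Seq (red circles) and footprints (blue squares), AZD-8055 over vehicle, for the 48 very long genes tested in both, ordered by the RNA change. Bars are standard errors of the fit with 2 mice a group. Most red circles lie left of 0, down to −0.72 for Mdn1, and most blue squares lie at or slightly right of it.

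On exon counts the RNA median was −0.19, with 4 of 48 called lower (0.0986% of all genes) and 41 lower without overlap (21.2%). Reads on the CDS and exonic reads outside it were then set on 1 scale, the latter as exon counts minus CDS counts. Over 44 members with enough of both, the median change was −0.22 in the CDS and −0.15 outside it, against 0.02 and −0.03 over 9348 genes. The change outside lay above that in the CDS in 30 of the 44 and in 34.5% of all genes. For Mdn1 the CDS reads changed by −0.70 and the reads outside by −0.13, while for Dst these were −0.36 and −0.44. Mdn1 had only 137 to 153 counts outside its CDS per library, and whether members differ in this split was not tested.

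The ratio of exon to CDS counts in a library describes where along the transcript the reads lie. Its median log2 value over 48 members was 0.33 and 0.32 in the vehicle mice and 0.32 and 0.34 in the AZD-8055 mice. It was higher in both treated mice than in both controls for 13 of the 48 members, which held for 10.9% of all genes, and lower for 3 (24% of all genes). Whether the place of the reads along the transcript had a part in the RNA change was not tested.

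Other genes known to encode very large proteins, in a list of 77 written for comparison, had a median RNA change of −0.12, with 50 of 64 tested below 0 and none called. Over 42 of these large proteins with enough reads of both kinds, the median was −0.12 in the CDS and −0.12 outside it. Ribosomal protein genes, whose coding sequences are short, had a median RNA change of −0.02. The summed RNA of striatal markers was 840 to 851 CPM with vehicle and 966 to 1040 CPM with AZD-8055, and that of excitatory markers 4110 to 4220 CPM and 4200 to 4580 CPM. By fitted change all 4 striatal markers tested lay above 0, and of 6 excitatory markers 4 lay above and 2 below. The part of tissue composition in the members' change was not tested, and in whole tissue fewer cells of a type and less RNA per cell cannot be told apart. Across 11433 genes with a RefSeq position, Spearman's rho of genomic span with RNA change was −0.05, given as a description across genes of the same libraries.

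Footprints of the very long genes did not follow their RNA down. Of 49 genes tested, 39 had a fitted footprint change above 0, as did 50.4% of all 10695 genes. Their median log2 change was 0.08 and that of all genes 0.0022. In 23 both AZD-8055 mice lay above both vehicle mice (21.8% of all genes) and in 5 both lay below (22.2%). None was called higher (0.0468% of all genes) or lower (0.963%) by edgeR at an adjusted p under 0.05, and none by DESeq2. The shares of all genes called over 2-fold were 0.00935% higher and 0.327% lower. Summed footprints of some marker lists were higher with AZD-8055 as well, at 4090 to 4150 CPM and then 4630 to 4680 CPM for excitatory neurons, 1890 to 1930 CPM and then 2020 to 2080 CPM for inhibitory neurons, and 583 to 602 CPM and then 648 to 768 CPM for the striatum. By fitted change 5 excitatory markers lay above 0 and 1 below, and 3 inhibitory markers lay above and 3 below. All 4 striatal markers tested lay above 0. The part of these markers in the members' footprint values was not tested. At an unadjusted p under 0.05, 8 were higher (6.12% of all genes) and 2 lower (6.7%).

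Lrp2, the endocytic receptor megalin, was tested in footprints alone and had the largest fitted change at 0.58 (SE 0.35). Its footprints were sparse, at 4.90 and 7.67 CPM with vehicle and at 6.01 and 11.5 CPM with AZD-8055, and the groups overlapped. Celsr1 was as uncertain, at 19.3 and 77.1 CPM in the 2 vehicle mice and at 47.0 and 61.5 CPM with AZD-8055. Its fitted change of 0.30 (SE 0.46) became −0.50 without mouse A and 1.50 without mouse B, where it was called higher, so that single mice decide it.

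Ryr3 footprints were at 42.6 and 46.9 CPM with vehicle and at 50.1 and 62.3 CPM with AZD-8055, a log2 change of 0.35 (SE 0.13). Fras1 footprints were at 55.8 and 58.1 CPM and then at 66.5 and 70.2 CPM, a change of 0.27 (SE 0.10). Those of Bsn, the active zone scaffold bassoon, were at 302.5 and 303 CPM and then at 359 and 353 CPM, a change of 0.23 (SE 0.07). In all 3 the treated mice lay above the controls without overlap.

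Ahnak was the exception among the genes with the lowest RNA, since its footprints were lower as well. They were at 21.6 and 19.3 CPM with vehicle and at 16.0 and 14.6 CPM with AZD-8055, a log2 change of −0.43 (SE 0.17) without overlap. Vps13a and Vps13c, VPS13 proteins that carry lipids between membranes, were also among the lowest. Vps13a footprints were at 191 and 195 CPM and then at 178 and 157 CPM, a change of −0.21 (SE 0.09), and those of Vps13c at 149 and 149.6 CPM and then at 138 and 134 CPM, a change of −0.14 (SE 0.08).

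Usp34, a deubiquitinase, had footprints of 179 and 178 CPM with vehicle and 176 and 148 CPM with AZD-8055, a change of −0.14 (SE 0.09). The treated mice lay just below the controls. Pclo footprints were at 416 and 439.5 CPM and then at 428.5 and 390 CPM, overlapping, with a change of −0.06 (SE 0.08).

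For the genes with the largest RNA falls the footprint changes stood near 0. Mdn1 footprints were at 69.7 and 76.5 CPM with vehicle and at 68.5 and 80.0 CPM with AZD-8055, a log2 change of 0.04 (SE 0.11). Fat3 footprints were at 179 and 179 CPM and then at 198 and 189 CPM (0.11, SE 0.08), and Smg1 footprints at 77.8 and 71.4 CPM and then at 75.6 and 81.5 CPM (0.07, SE 0.10). The footprint libraries of Mdn1 and Smg1 overlapped between groups, and those of Fat3 did not.

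**Figure D2:**
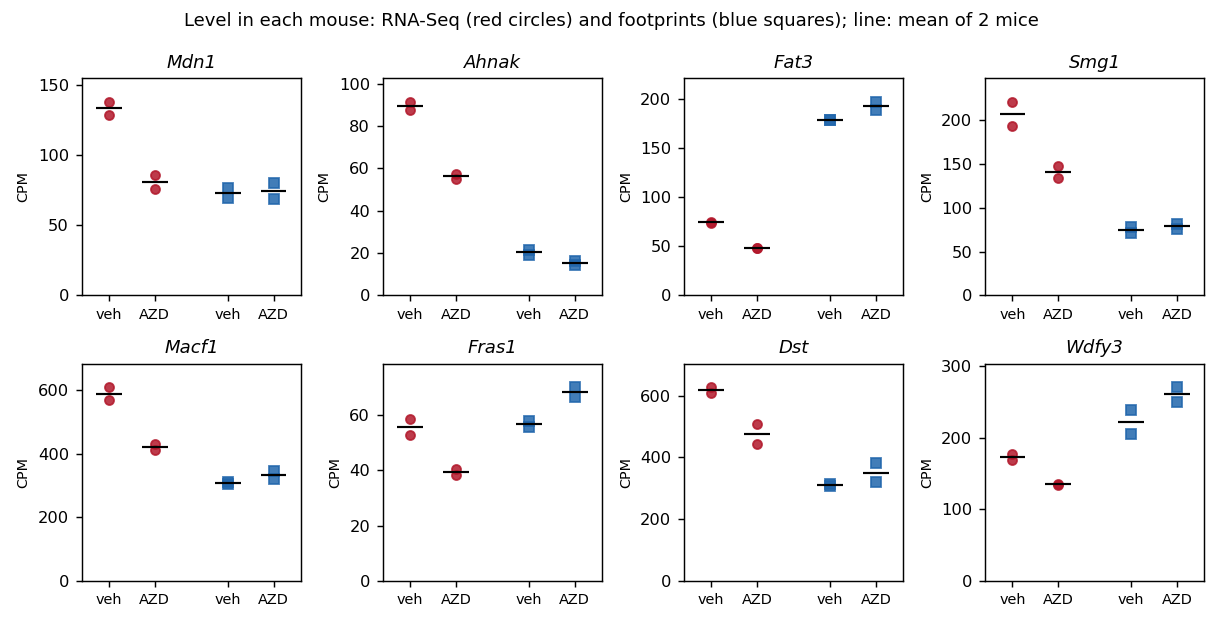
Level of 8 very long genes in each mouse, in CPM, with vehicle (veh) and AZD-8055 (AZD), for RNA-Seq (red circles) and footprints (blue squares), with a line at the mean of 2 mice. The RNA of all 8 is lower in both AZD-8055 mice, as for Mdn1 at 75.6 and 86.1 CPM against 129 and 138 CPM, while only Ahnak footprints are lower too.

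Ribosomal protein messages form the reference for a response to mTOR inhibition, because their 5′ ends carry a C followed by a run of pyrimidines, the TOP motif, through which mTOR is known to control translation. Their median footprint change was −0.94, with 71 of 75 called lower. The first 20 bases from the annotated start (RefSeq, GRCm38.p6) are shown for the 5 members called lower in RNA and for Dst, the only one of 37 matched members with a start of this kind, beside Rps6. Capitals mark the 5 bases compared, on the strand of the gene. The sequences were these.
Mdn1, chr4:32657119-32657138, plus strand: GCCGCcgcgggttgatgacg
Ahnak, chr19:8989284-8989303, plus strand: CGGCCacttggagcagctct
Fat3, chr9:16502035-16502054, minus strand: AACCCgcagcagtggcggcg
Smg1, chr7:118243618-118243637, minus strand: GAGGCggggaagccgtggcc
Macf1, chr4:123684341-123684360, minus strand: GAGGTtcaagtaggtaaaga
Dst, first start, chr1:34011595-34011614, plus strand: AGAAGcgcggcgcatcccgg
Dst, second start, chr1:34160260-34160279, plus strand: CTTTTagactgcctttcacc
Rps6, chr4:86857348-86857367, minus strand: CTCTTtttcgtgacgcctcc

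A C at the annotated start followed by 4 bases that are each C or T was found at a start of 1 of 37 members (2.7%), of 13 of 57 ribosomal protein genes (22.8%) and of 3.01% of 27025 genes in the table. The starts searched were not always the outermost of a gene. The Dst gene begins at 33907888, upstream of both Dst starts shown, and the Mdn1 gene at 32657114, upstream of its start shown. On the minus strand, Macf1 reaches to 123687802, Smg1 to 118244437 and Fat3 to 16502681, upstream of their starts shown. Starts outside the set were not searched. Only the strand of the gene was searched, and annotated starts can miss the true one, so a gene without a match may still have such an end.

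TE of the very long genes was higher with AZD-8055. Of 48 genes tested, 45 had a fitted log2 change of TE above 0, as did 47.7% of all 10531 genes. Their median was 0.31 and that of all genes −0.01. In 35 both AZD-8055 mice lay above both vehicle mice (16.8% of all genes) and in 2 both lay below (21.7%). By edgeR at an adjusted p under 0.05 and at any fold, 9 members were called higher among 10 genes in all (0.095%), and none was called lower (0.912% of all genes). The tenth gene was Cacna1e, a voltage-gated calcium channel subunit named here after its value was seen.

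None of the 9 passed a limit of 2-fold (0% of all genes higher and 0.323% lower), and the largest was 1.68-fold. At an unadjusted p under 0.05, 28 members were higher (2.85% of all genes) and 0 lower (4.47%). DESeq2 called 13 members higher at any fold among 20 genes, and a fit with the mouse as a block called 17 among 34. Each fit without 1 mouse left 1 mouse in a group and called fewer members. Over these fits the members' median was 0.28 to 0.34. Fras1 was at 0.67 to 0.83, Mdn1 at 0.72 to 0.76 and Fat3 at 0.70 to 0.75. Celsr3, the lowest in the main fit, was at −0.27 to 0.07.

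The log2 TE of Fras1 was 0.15 and 0.05 with vehicle and 0.76 and 0.93 with AZD-8055, a fitted change of 0.75 (SE 0.14). That of Mdn1 was −0.81 and −0.79 and then −0.09 and −0.05, a change of 0.75 (SE 0.14). That of Fat3 was 1.34 and 1.32 and then 2.07 and 2.03, a change of 0.72 (SE 0.10). In these 3 genes the gap between the groups was several times the gap between mice of a group.

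For Smg1 log2 TE was −1.24 and −1.56 with vehicle and −0.91 and −0.65 with AZD-8055, a change of 0.61 (SE 0.13). For Macf1 it was −0.83 and −0.90 and then −0.32 and −0.26, a change of 0.58 (SE 0.10). For Wdfy3, a BEACH protein of selective autophagy, it was 0.58 and 0.27 and then 0.94 and 1.07, a change of 0.57 (SE 0.11). Wdfy3 and Smg1 had the wider spread between the 2 vehicle mice, and neither overlapped.

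Dst, with log2 TE of −0.88 and −0.96 and then −0.42 and −0.36, changed by 0.54 (SE 0.12). Bsn, with 0.11 and 0.05 and then 0.53 and 0.59, changed by 0.48 (SE 0.10). Ubr4, an E3 ligase of the N-degron pathway, with −0.47 and −0.62 and then −0.06 and −0.13, changed by 0.45 (SE 0.10). The 9 called genes came from 8 of the 10 role groups, with Dst and Macf1 both linkers.

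The lowest TE changes belonged to Celsr3 at −0.05 (SE 0.21), Reln at −0.05 (SE 0.11), Lrba at −0.04 (SE 0.11), Vps13a at 0.02 (SE 0.11) and Akap9, a scaffold of the centrosome and Golgi, at 0.05 (SE 0.11). Reln was nearly level in all 4 mice, at log2 TE of 1.49, 1.50, 1.46 and 1.43 in mice A to D. Lrba was too, at 0.61, 0.65, 0.57 and 0.60. In both genes the AZD-8055 mice lay slightly below the vehicle mice, without overlap. Celsr3 was at −3.30 and −3.41 with vehicle and at −3.66 and −3.31 with AZD-8055, Vps13a at 0.91 and 0.99 and then 1.01 and 0.94, and Akap9 at 0.08 and 0.24 and then 0.29 and 0.13, all 3 overlapping.

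The members' median log2 difference of TE was 0.34 for mouse C over A, 0.34 for C over B, 0.25 for D over A and 0.30 for D over B. It was −0.05 for B over A and −0.02 for D over C. The other very large proteins had a median TE change of 0.15, with 51 of 62 above 0 and none called, and the ribosomal protein genes one of −0.90. RNA, footprint and TE changes come from the same 4 mice, and TE holds both of the others.

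**Figure D3:**
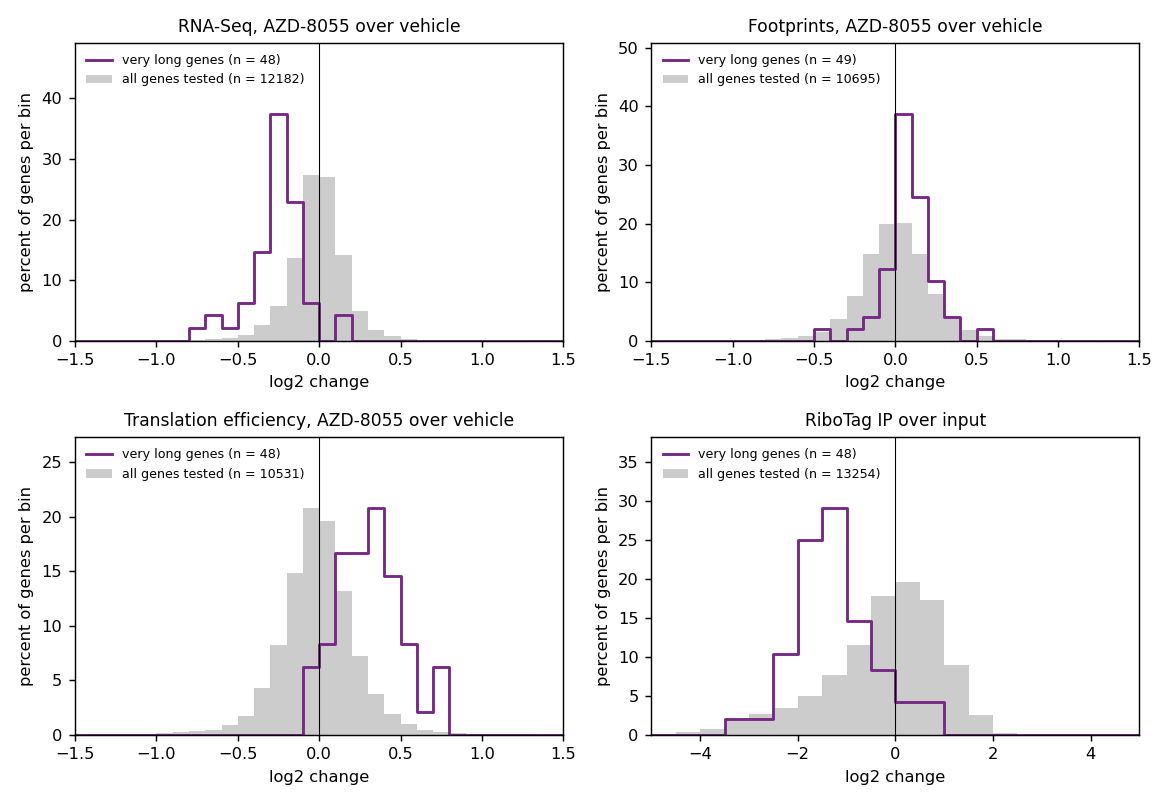
Share of genes by log2 change, in percent per bin (bins of 0.1, and of 0.5 for RiboTag), for all genes tested (grey) and the very long genes (purple line), each panel cut at the ends of its axis. The purple line is shifted to the left for RNA (median −0.24) and RiboTag IP (median −1.27), to the right for TE (median 0.31), and lies close to the grey for footprints (median 0.08).

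In vehicle mice the TE of the very long genes spread as widely as that of genes in general. Over 48 members the median log2 TE was 0.22 (SD 0.96 across genes) against 0.02 (SD 0.99) over 10882 genes, and 29 members lay above the median of all genes. The values in mice A and B are given as a description of 1 group, from counts divided by DESeq2 size factors. Of 8 trafficking proteins 7 lay above the median of all genes (group median 0.59), and of 7 ubiquitin enzymes 1 did (group median −0.52), this being Birc6, an inhibitor of apoptosis.

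Among surface proteins, Lrp1b, an endocytic receptor of the LDL receptor family, stood highest of the steady genes at log2 TE of 1.98 and 1.87, a mean of 1.93 (SD 0.08, n = 2). Reln followed at 1.54 and 1.49 (mean 1.51, SD 0.04) and Fat3 at 1.39 and 1.31 (mean 1.35, SD 0.06). The gaps between these 3 exceeded the spread between the mice. Celsr1 had a mean of 1.95 (SD 1.38) from 0.97 and 2.92, and its place in the order is not settled by these mice.

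At the low end Celsr3 was at −3.25 and −3.42 (mean −3.34, SD 0.12), in the lowest 0.322% of all genes. Ahnak was at −1.90 and −2.19 (mean −2.04, SD 0.20), Ryr3 at −1.66 and −1.71 (mean −1.69, SD 0.04) and Smg1 at −1.19 and −1.57 (mean −1.38, SD 0.27). The neighbours Ahnak, Ryr3 and Smg1 were separated by little more than their spread, and Celsr3 stood apart. The related genes Celsr2, at a mean of 0.30, and Ryr2, at 0.38, lay far above their paralogs.

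**Figure D4:**
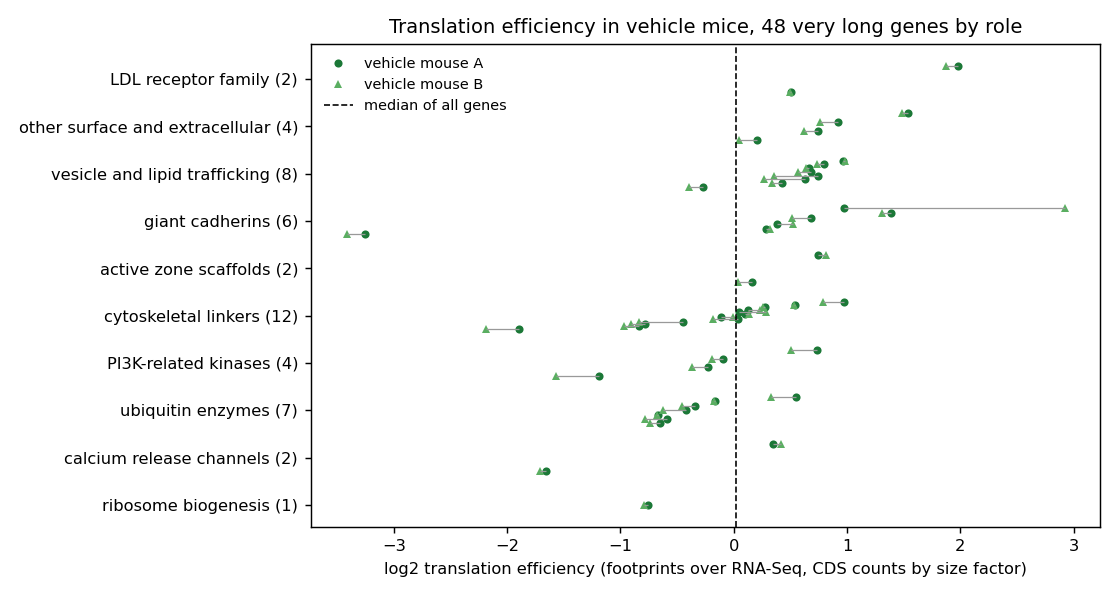
Log2 TE of 48 very long genes in the vehicle mice A (circles) and B (triangles), joined by a line for each gene, by role group with the number of genes in brackets. The dashed line is the median of all genes at 0.02. Ubiquitin enzymes lie mostly left of it (group median −0.52) and trafficking proteins mostly right (group median 0.59), and the widest gap between mice is that of Celsr1.

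RiboTag IP pulls polysomes from Camk2a-expressing cells, and the paper uses the ratio of IP to input as an enrichment score. The input is total lysate, so cell type and polysome association cannot be told apart in this ratio. The pull-down depleted other cells, with summed astrocyte markers at 943 to 1020 CPM in input and 81.5 to 96.2 CPM in IP, and oligodendrocyte markers at 2910 to 3210 CPM and 465 to 477 CPM. Excitatory markers stood at 6040 to 6710 CPM in input and at 11200 to 12400 CPM in IP. These sums are of exon counts, on which 5 of 6 excitatory markers were called higher and 0 lower. On CDS counts 4 were called higher and 2 lower, down to a log2 ratio of −0.66. No marker of these 3 lists was at 0.

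Very long genes were low in the IP. On exon counts 44 of 48 had a log2 ratio of IP to input below 0, with a median of −1.27 (−1.25 in mouse E and −1.31 in mouse F) against −0.03 for all 13254 genes. By edgeR at an adjusted p under 0.05, 43 were called lower (35.7% of all genes) and 33 of them by over 2-fold (21.8%), while 2 were called higher (33.7%) and none by over 2-fold (11.7%). Inputs and IPs did not overlap in 43 lower (43.8% of all genes) and 2 higher (41.2%). Scaling by total counts in place of TMM moved the split of calls over all genes from 4463 higher and 4731 lower to 3110 and 6108.

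The lowest ratio was that of Vps13c, at 67.2 and 67.1 CPM in the inputs of mice E and F and at 9.32 and 6.96 CPM in their IPs, a log2 change of −3.05 (SE 0.16). Lrp1b was at 41.9 and 42.8 CPM in input and at 6.32 and 5.88 CPM in IP, a change of −2.80 (SE 0.12). Usp34 was at 124 and 134 CPM and then at 24.7 and 24.3 CPM, a change of −2.40 (SE 0.10). The exon value of Usp34 is uncertain, since its exon counts were below its CDS counts in every library. On CDS counts its change was −1.17. The inputs of both mice were several times their IPs for these genes, and Vps13c varied most between the IPs.

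Celsr1, at 10.3 and 6.60 CPM in input and 1.75 and 1.47 CPM in IP, changed by −2.39 (SE 0.30). Fat1, a cadherin that guides cell migration, was at 50.8 and 49.9 CPM and then at 10.8 and 11.1 CPM, a change of −2.20 (SE 0.11). Celsr3 was at 204 and 151 CPM and then at 47.7 and 38.1 CPM (−2.05, SE 0.18). All 6 giant cadherins were called lower, the highest being Celsr2 at −0.50.

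Reln, made in the adult cortex mainly by inhibitory neurons, was at 78.9 and 90.0 CPM in input and at 20.4 and 21.6 CPM in IP, a change of −2.01 (SE 0.11). The list of inhibitory neuron markers was at 857 to 901 CPM in input and 175 to 237 CPM in IP. Whether inhibitory cells had a part in the value of Reln was not tested.

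Ryr3 was at 78.3 and 55.5 CPM in input and at 21.8 and 17.2 CPM in IP, a change of −1.78 (SE 0.20). Prkdc, the catalytic subunit of the DNA repair kinase DNA-PK, was at 36.8 and 39.3 CPM and then at 10.4 and 11.7 CPM (−1.78, SE 0.12). Ahnak was at 53.4 and 35.1 CPM and then at 15.5 and 10.9 CPM (−1.75, SE 0.25). Of these 3, Ahnak and Ryr3 differed more between the inputs than Prkdc, with both IPs well below.

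Mdn1 was at 73.8 and 60.8 CPM in input and at 22.4 and 18.4 CPM in IP, a change of −1.72 (SE 0.15). Trrap, a scaffold of histone acetyltransferase complexes, was at 185.5 and 159 CPM and then at 55.3 and 51.3 CPM (−1.69, SE 0.11). The IPs of both genes lay far below the inputs in each mouse.

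The genes that did not fall were all cytoskeletal linkers. Ank3, ankyrin-G of the axon initial segment, was at 219 and 230.1 CPM in input and at 375 and 384 CPM in IP, a change of 0.76 (SE 0.08). Ank2, ankyrin-B of axons, was at 561 and 598.5 CPM and then at 875 and 904 CPM, a change of 0.62 (SE 0.08). Both were called higher on exon counts.

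Dmd (dystrophin) was at 68.5 and 79.1 CPM in input and 83.0 and 78.3 CPM in IP (0.13, SE 0.11), Dst at 388 and 351 CPM and then 401 and 359 CPM (0.04, SE 0.10), and Macf1 at 382 and 337 CPM and then 368 and 340.0 CPM (−0.02, SE 0.10). For these 3 the inputs and IPs overlapped. All 36 members outside the group of 12 linkers were called lower, from −3.05 to −0.50. Among the linkers, 7 were called lower, with Ahnak and Utrn, the dystrophin relative utrophin (−1.57), the lowest.

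On CDS counts the median was −1.52, with 44 called lower (39% of all 12211 genes), 33 of them by over 2-fold (26.1%), and none higher (36.5%). At an unadjusted p under 0.05, 44 were lower (40% of all genes) and 0 higher (37.2%). The change of Ank3 was then −0.03 (SE 0.11) and that of Ank2 −0.15 (SE 0.11), so that their rise was not seen on the CDS. Dmd turned to −0.72 (SE 0.17) and was called lower. The CDS value was far lower than the exon value for Bsn, at −2.82 against −1.09, and for Smg1, at −3.09 against −1.68, whereas for Usp34 it was higher, at −1.17 against −2.40.

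In the 43 members with enough reads of both kinds, the low IP values were mostly those of reads in the CDS. With CDS reads and exonic reads outside the CDS on the scale of the exon libraries, the median log2 ratio of IP to input over 43 members was −1.95 in the CDS and 0.18 outside it. The corresponding medians over 9577 genes were −0.58 and 0.53, so the gap to all genes was larger in the CDS. Over 42 of the other very large proteins they were −1.795 and 0.389, so the split was not particular to the members. Reads outside stood above CDS reads in 43 of 43 members and in 93.7% of all genes. Lrp2, Celsr1, Usp34, Vps13c, Lrp1b and Prkdc had too few reads outside the CDS, or none by subtraction, and were left out. They include Vps13c, Lrp1b, Usp34 and Celsr1, the lowest members on exon counts. In the fit on CDS counts Vps13c (−2.67), Lrp1b (−2.43), Usp34 (−1.17) and Prkdc (−1.42) were less low than on exons. Celsr1 was lower (−3.07).

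Bsn showed the split between the CDS and the reads outside it most clearly. It had 6157 and 6019 CDS counts in input and 508 and 370 in IP, but 6298 and 7597 counts outside the CDS in input and 3763 and 3952 in IP. Its log2 ratio was −3.30 in the CDS and −0.33 outside. Ank3 had 3050 and 3810 CDS counts in input and 1675 and 1715 in IP, against 2193 and 3298 outside in input and 4964 and 6132 in IP, a ratio of −0.49 in the CDS and 1.55 outside.

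Dst and Macf1 showed the same split from a higher level. Dst was at −0.41 in the CDS and 1.76 outside, and Macf1 at −0.62 and 1.82. The smallest gap was that of Dync1h1, the heavy chain of cytoplasmic dynein, at −1.29 and 0.24, with only 355 and 530 counts outside its CDS in the inputs.

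**Figure D5:**
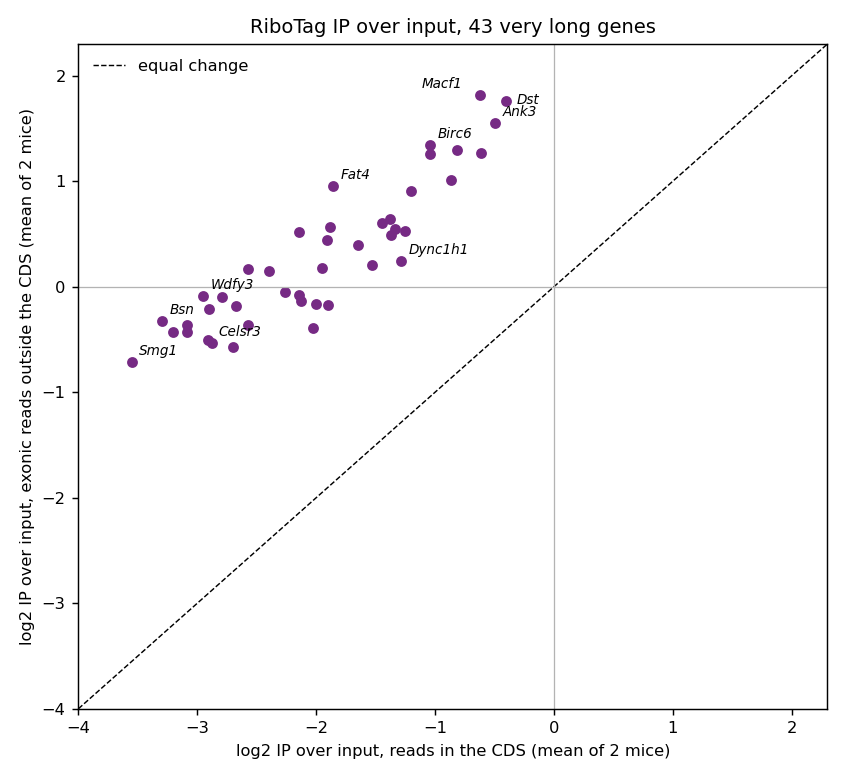
Log2 ratio of RiboTag IP to input for reads in the CDS (horizontal) and for exonic reads outside it (vertical), mean of mice E and F, for 43 very long genes. The dashed line marks equal change. Every gene lies above the line, from Smg1 at −3.55 and −0.72 to Macf1 at −0.62 and 1.82.

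The ratio of exon to CDS counts within a library is drawn from the same counts, and so restates the split for the genes above. In the inputs its median log2 value over 48 members was 0.22 and 0.27, and the IPs gave 0.79 and 0.87. Over all genes the inputs gave 0.56 and 0.58, and the IPs 0.88 and 0.99. Over 65 other very large proteins the inputs gave 0.21 and 0.22, and the IPs 0.70 and 0.70. The ratio was higher in the IP of both mice for 47 of 48 members and for 79.5% of all genes. The exception was Usp34, whose exon counts were below its CDS counts in every library, so that its counts cannot be split in this way and its exon value is uncertain. Between Bsn, at 3.07 and 3.55 in the IPs, and Herc1, an E3 ligase, at 0.04 and 0.06, the members covered a wide range.

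Other very large proteins had a median IP ratio of −1.15 on exons, with 57 of 64 called lower, and of −1.34 on the CDS, while ribosomal protein genes had medians of 0.91 and 1.35. Spearman's rho of genomic span with the ratio was −0.33 on exons and −0.44 on the CDS over 12380 and 11459 genes of these 4 libraries. Members spanned from 25222 bp (Celsr2) to 2390387 bp (Dmd), and within them rho was 0.22 and 0.06. The parts of cell type, of polysome association and of read position in the low IP values of single members were not tested.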

How the data were processed

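Poly(A) RNA-Seq and ligation-free footprint libraries came from 6 adult mice. The authors trimmed footprint reads and clipped poly(A) stretches, used Bowtie2 against rRNA and TopHat2 for the alignment to mm10 (tools and build as in the submitters' processing notes), and took gene counts from HTSeq. They deposited raw counts per gene symbol, over CDS (12 libraries) and over exons (8, all RNA-Seq). Here genes whose counts averaged 37 or more per library (of each kind for TE) were tested over the whole table with edgeR 4.0.16 in R 4.3.3 (TMM, quasi-likelihood test, Benjamini-Hochberg threshold 0.05). TMM factors were 0.9 to 1.11. TE was the interaction of library kind and treatment, and baseline TE used DESeq2 1.42.0 size factors and at least 75 counts in each kind. CPM are scaled to 1000000 counts after TMM. The fits were checked on simulated counts with planted changes larger than any drug change of a member. The simulation used a single spread for all genes and no link between libraries of a mouse. It therefore does not cover changes of the size seen after AZD-8055.

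The members, the role groups and the list of other very large proteins were chosen with earlier results of these data known, and the marker lists are textbook genes. Values were printed for every library for the 5 largest rises and falls in each comparison and, for called members, for up to 12 by size where they add to these. Libraries with the same letter come from 1 mouse per the labels. The A to B difference correlated between RNA and footprints at 0.244 across 10531 genes, C to D at 0.283, and E to F between input and IP at 0.553 across 13248 genes. Positions and start sequences are RefSeq, GRCm38.p6, the assembly of mm10. Reads outside the CDS are exon minus CDS counts and include any read counted only on exons. P-values rest on 2 mice a group, with the spread of each gene moderated across all genes tested. The SE of a fitted change is its absolute log2 value divided by the square root of the F statistic of the test. Alternatives were DESeq2, other scalings, other count minimums, the other counted region, the mouse as a block and leaving out each mouse.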

Additional observations from a re-analysis of the deposited data

How the results depend on the processing

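The direction of every median held under all alternatives run. The count of members with lower RNA was 12 with DESeq2 (of 21 genes called lower), 11 with total counts (of 20) and 4 to 10 on leaving out a mouse (of 10 to 29), and the RNA median was −0.19 on exon counts. The footprint median was 0.0833 with total counts, 0.0577 with a minimum of 5 counts, 0.0895 with a minimum of 200 and 0.0808 to 0.0987 on leaving out a mouse. Footprint calls went from 0 to 5 higher and 0 to 2 lower on leaving out a mouse, with 5 and 2 without mouse C, the shallowest footprint library, where calls over all genes went from 5 higher and 103 lower to 355 and 482, and 1 higher without mouse B (of 3). The TE median was 0.35 with total counts, 0.37 with a minimum of 200 counts and 0.28 to 0.34 on leaving out a mouse. TE calls at any fold were 15 with a minimum of 200 counts (of 22 genes), 17 with the mouse as a replicate block (of 34) and 2 to 7 on leaving out a mouse (of 3 to 17), and those over 2-fold 0 to 1. With the block the TE median was 0.31, the IP median −1.27 and the IP counts 33 and 43 lower and 2 higher, as without it. The block was run for TE and IP only. The IP median was −1.54 with total counts, which moved the median of all genes from −0.03 to −0.31, −1.20 with a minimum of 5 counts, −1.38 with a minimum of 200, −1.52 on the CDS and −1.29 to −1.25 on leaving out a mouse. No member was called higher in IP on the CDS, down from 2. Baseline TE was 0.13 with total counts and 0.24 to 0.26 in single mice.

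The calls at any fold, the reads outside the CDS, the genomic span and the list of other very large proteins were added after seeing the data. Some changes turned sign, most of them near 0 but also those of Ank3 and Ank2, which were called higher in IP on exons, and of Celsr1. In RNA these were Celsr3 (0.00067 on exons, −0.13 to 0.14 on leaving out a mouse) and Celsr2 (−0.0421 to 0.0171), and in footprints Celsr1 (−0.50 to 1.50) and Pclo (−0.14 to 0.0045). In TE they were Lrba (0.0020 with a minimum of 200 counts), Akap9 (−0.0319 to 0.14), Vps13a (−0.0159 to 0.0618) and Celsr3 (−0.27 to 0.0702). In IP they were Macf1 (0.0076 with DESeq2 or its size factors, 0.0698 with a minimum of 5 counts, −0.0634 to 0.0372 on leaving out a mouse), Dmd (−0.15 with total counts, −0.0028 with a minimum of 200, −0.72 on the CDS), Dst (−0.23 and −0.0876 for the same first 2 settings), Ank3 (−0.0325 on the CDS) and Ank2 (−0.15 on the CDS). The cause was not tested. The relation with protein length was not run, since no protein table was used here. Lrp2 had 21 to 55 footprint counts per library, which limits its precision.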
